A study of Mus musculus with 10 samples.

Results

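Rgs16, Nrep and Serpina4-ps1 changed more between refed and fasted mouse livers than nearly all other genes, and they were chosen by that difference: 3 genes of the 41388 listed, all 3 among the 13444 that could be tested. Liver RNA was sequenced from 2 WT Refed, 3 WT Fasting and 5 NAMPT LKO Fasting mice of strain C57B/6J at an age of 12 weeks, with 1 library a mouse. Both fasted groups went without food for 24 h, and WT Refed mice for 22 h before a refeeding period of 2 h, as the labels give it; the paper describes the same controls as random-fed and gives a shorter fast. NAMPT LKO mice were littermates that carried Nampt LoxP/LoxP and Albumin-cre, which removes Nampt, the gene of an NAD+ salvage enzyme, in hepatocytes, so that other liver cells keep it. WT mice carried Nampt LoxP/LoxP without Cre. There was no refed NAMPT LKO group, so whether the response to refeeding differed by genotype could not be tested.

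The 3 genes have little in common by type. Rgs16 encodes a regulator of G protein signalling, a protein that speeds GTP hydrolysis on activated Gi and Gq alpha subunits and so ends the signal of their receptors; in liver it is known as a rhythmic, fasting-responsive gene of periportal hepatocytes. Nrep (also called P311) encodes a small protein first described in neurons and muscle and known for raising the translation of TGF-beta in wound and fibrosis models. Serpina4-ps1 is a pseudogene, a copy of a serpin gene that is annotated as not making the protein, and it lies in the Serpina cluster, whose active members encode secreted protease inhibitors of hepatocytes such as alpha-1-antitrypsin.

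All positions are on GRCm38. Rgs16 (ENSMUSG00000026475) lies on the plus strand of chromosome 1 from 153740349 to 153745468, with 5 exons.

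Serpina4-ps1 (ENSMUSG00000092075) lies on the plus strand of chromosome 12 from 104080649 to 104086724, has 4 exons and is annotated as an unprocessed pseudogene. Because serpins are a family of related genes, the reads of a pseudogene could be shared with its relatives. Of the 1238 windows of 50 bases (the read length) in the Serpina4-ps1 transcript, 0 occurred in a transcript of another gene, and the longest exact match to another gene was 20 bases. The stretch most like another serpin is shown with its partner Serpina11, with capitals at bases that differ or have no partner in the alignment, since Serpina11 is described with the pseudogene below; Gm28577, a gene that overlaps Serpina11 on the same strand, matches the same stretch equally well. It lies in exon 1 of Serpina4-ps1 (GRCm38 chr12:104080870-104080983, plus strand) against exon 2 of the Serpina11 transcript (chr12:103986174-103986287, minus strand), and 24 of the 112 aligned bases differ.
Serpina4-ps1: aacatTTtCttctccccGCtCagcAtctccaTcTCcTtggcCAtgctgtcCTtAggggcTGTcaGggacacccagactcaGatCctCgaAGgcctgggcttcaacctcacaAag
Serpina11: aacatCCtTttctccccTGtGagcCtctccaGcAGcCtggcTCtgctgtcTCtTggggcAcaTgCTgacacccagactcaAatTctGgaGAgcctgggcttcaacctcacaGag

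Rgs16 shared 191 of its 2290 windows, or 8.34%, with Gm28513, an overlapping gene on the opposite strand. Whether the counting used strand is not given in the sources used here, so reads from that stretch cannot be assigned with certainty. Gm28513 itself held at most 22 reads in any library. If strand was not used, reads in the overlap were counted for neither gene. The low count of Gm28513 therefore cannot show how many Rgs16 reads were lost. In the Nrep transcripts at most 2 windows were shared with other genes.

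For Rgs16, RefSeq gives a promoter, whose 246 bases before the first exon of GENCODE are printed because they hold the start of the gene with the largest range of the 3 on the log2 scale (GRCm38.p6 chr1:153740103-153740348, plus strand). Of 7 motifs searched on both strands in the window of 250 bases before to 50 bases after the start, the E-box CACGTG, the cAMP response element TGACGTCA, the D-box TTATGTAA, the FOXO motif TGTTTAC, the nuclear receptor motif AGGTCA, the HNF4 motif CAAAGTCCA and the TATA box TATAAA, 0 were found in these letters. Among all 32851 promoters the shares that hold them run from 0.475% (HNF4) to 16.3% (AGGTCA). After the sequence had been seen, CCAAT and CCGCCC were added; CCAAT occurs on the minus strand 64 bases before the start and CCGCCC at 43 and at 38 bases before it, in capitals here, and 37.4% and 35.7% of all promoters hold them.
Rgs16 promoter: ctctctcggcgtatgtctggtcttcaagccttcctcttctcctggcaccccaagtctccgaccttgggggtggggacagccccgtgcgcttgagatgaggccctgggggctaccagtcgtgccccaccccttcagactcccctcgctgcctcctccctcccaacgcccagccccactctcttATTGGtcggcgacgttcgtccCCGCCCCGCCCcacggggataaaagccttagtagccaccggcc

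Total counts ranged from 30603080 to 43434139 a library. Values below are CPM, read counts relative to the library total, with edgeR's TMM factors applied unless another scale is named. Nampt checked the labels: it lay between 11.8 and 15.3 CPM in the 5 NAMPT LKO livers and between 63.0 and 141 CPM in the 5 WT livers. The 5 hepatocyte markers summed to between 59969 and 94809 CPM as deposited, while the 5 markers each of pancreas, adipocyte, and neuron and muscle summed to under 1 CPM in every library, with Prss2 and Cpa1 of the pancreas list at 0 throughout. NAMPT LKO mouse 5 stood apart with 21.1% of its counts on mitochondrial genes, against 7.42% to 12.9% in the other libraries.

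Rgs16 was nearly silent in refed livers and clearly expressed in fasted ones. It was at 1.23 and 0.715 CPM in the 2 WT Refed livers (55 and 31 reads), at 20.5, 23.8 and 55.5 CPM in the 3 WT Fasting livers, and at 39.2, 43.7, 32.4, 11.6 and 43.4 CPM in the 5 NAMPT LKO Fasting livers. Every fasted liver lay above both refed livers, and WT Fasting mouse 3 and NAMPT LKO mouse 4 were the high and the low end of the fasted range. The log2 fold change was 5.09 (standard error 0.70), or 34.0-fold, in WT Fasting against WT Refed and 5.12 (standard error 0.69), or 34.8-fold, in NAMPT LKO Fasting against the same refed livers. Without WT Fasting mouse 3 the rise of Rgs16 in WT Fasting livers was 4.49. At 31 and 55 reads the refed level is known only roughly: the exact Poisson 95% interval, which covers counting error only, ran from 0.499 to 1.04 deposited CPM in one refed liver and from 0.959 to 1.66 in the other.

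Nrep did the opposite. The gene (ENSMUSG00000042834) lies on the minus strand of chromosome 18 from 33437019 to 33464029. It was at 44.5 and 44.1 CPM in the WT Refed livers, at 3.43, 1.89 and 1.81 CPM in the WT Fasting livers, and at 4.38, 3.01, 3.10, 3.37 and 4.55 CPM in the NAMPT LKO Fasting livers. The refed livers were nearly equal, and every fasted liver lay far below them. The log2 fold change was -4.21 (standard error 0.28), or 18.6-fold lower, in WT Fasting against WT Refed, and -3.59 (standard error 0.23), or 12.0-fold lower, in NAMPT LKO Fasting against WT Refed. In bulk tissue, fewer cells of a type and less RNA per cell cannot be told apart. The summed deposited CPM of 5 stellate cell markers (Lrat, Des, Reln, Pdgfrb, Dcn) was 181 and 182 in the refed livers and 176 to 273 in the fasted livers. In WT Fasting against WT Refed, 0 of the 5 were called by edgeR's quasi-likelihood test or DESeq2 and 0 had an unadjusted p under 0.05, with 3 above 0 and 2, Lrat (-0.44) and Pdgfrb (-0.07), below; Dcn made up most of the sum. Their part in the fall of Nrep was not tested.

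Serpina4-ps1 fell from the highest level of the 3 genes and was the most variable in fasted livers. It was at 150 and 199.9 CPM in the WT Refed livers, at 12.7, 3.63 and 2.99 CPM in the WT Fasting livers, and at 13.2, 4.39, 24.7, 22.3 and 3.28 CPM in the NAMPT LKO Fasting livers. WT Fasting mouse 1 and NAMPT LKO mice 1, 3 and 4 formed the upper part of the fasted range and the other 4 fasted livers the lower part. The log2 fold change was -4.75 (standard error 0.87), or 27.0-fold lower, in WT Fasting against WT Refed and -3.68 (standard error 0.69), or 12.8-fold lower, in NAMPT LKO Fasting against WT Refed. Without WT Fasting mouse 1 the fall in WT Fasting livers was -5.74. These differences chose the genes and share the 2 refed livers, so no test is given for them.

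**Figure D1:**
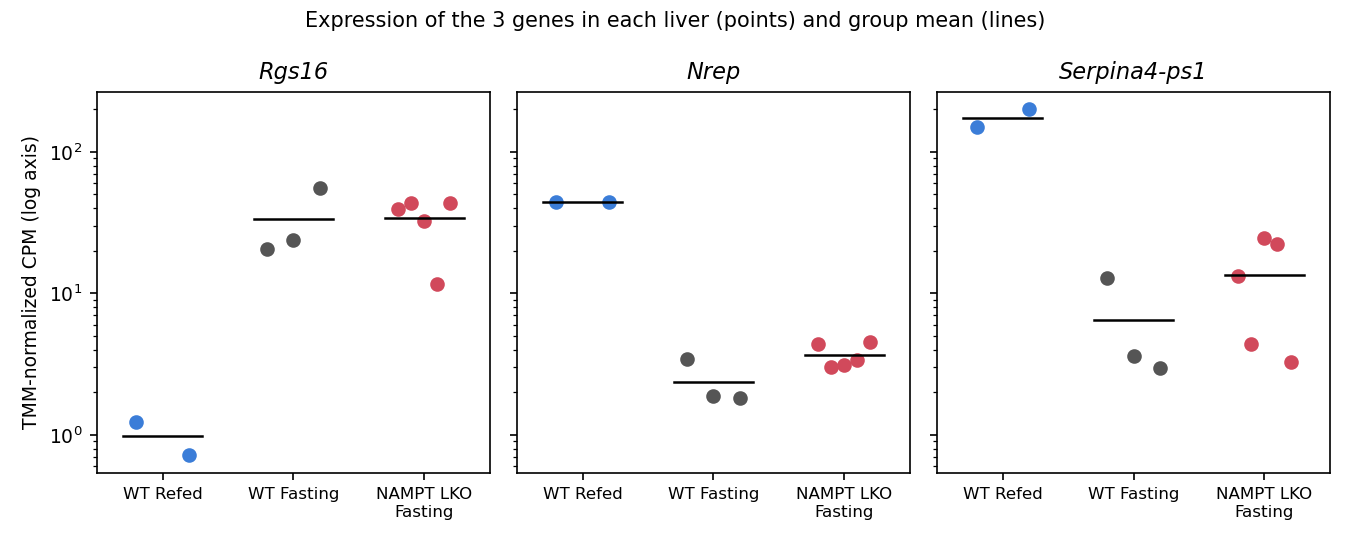
TMM-normalized CPM (log axis) of Rgs16, Nrep and Serpina4-ps1 in each of the 10 livers by group; points are livers and lines are group means. All fasted livers sit above the refed livers for Rgs16 and below them for Nrep and Serpina4-ps1, while the fasted groups overlap for all 3 genes.

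The 3 genes were chosen by this same difference, so their high ranks and calls follow from that choice and are given as a description. Ranked among called genes that have a symbol, average 5 CPM or more and show separate groups, Rgs16 was 2nd of 303 rises in WT Fasting livers. Igfbp1, a secreted IGF-binding protein of the fasted liver, was 1st with a log2 fold change of 7.65, and G6pc, the glucose-6-phosphatase of glucose output, was 3rd with 3.21, so the step from Rgs16 to the next gene was wide. Serpina4-ps1 and Nrep were 1st and 2nd of 507 falls, followed by Derl3, a gene of endoplasmic reticulum quality control, at -4.01 and Onecut1, a hepatocyte transcription factor also known as HNF6, at -3.80. For scale, 2.68% of all genes tested were called higher and 4.36% lower in WT Fasting against WT Refed, and the groups did not overlap for 49.7% of genes (calls are adjusted p-values of 0.05 or less from the quasi-likelihood test of edgeR). Against the same refed livers, calls in NAMPT LKO Fasting livers made up 4.65% of genes for rises and 6.58% for falls, and 33.5% did not overlap.

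Per length, on the deposited RPKM scale, the order of the 3 genes turned over. In WT Refed livers the mean RPKM was 140 ± 27.99 (SD, n = 2) for Serpina4-ps1, 18.2 ± 0.17 for Nrep and 0.43 ± 0.16 for Rgs16, without overlap between genes. Of all tested genes, 97.2% lay below the pseudogene in refed livers, 83.0% below Nrep and 12.4% below Rgs16. In WT Fasting livers Rgs16 came first at 14.2 ± 8.60 RPKM (SD, n = 3), above 80.0% of genes, followed by Serpina4-ps1 at 4.99 ± 4.28 and Nrep at 0.94 ± 0.37, above 58.5% and 22.2% of genes. In NAMPT LKO Fasting livers the values were 14.0 ± 5.35 (SD, n = 5), 10.5 ± 7.85 and 1.41 ± 0.23 RPKM. The ranges of Rgs16 and Serpina4-ps1 overlapped in both fasted groups, whereas Nrep lay below both genes in every fasted liver. Liver by liver, Serpina4-ps1 lay above Rgs16 in WT Fasting mouse 1 and in NAMPT LKO mice 3 and 4. In the other fasted livers it lay below Rgs16. The difference between these genes was not tested.

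The deletion of Nampt asked whether the fasted levels depend on hepatocyte NAD+ salvage. Comparing the fasted genotypes by edgeR's quasi-likelihood test, adjusted over 13444 genes, 0 of the 3 genes were called, and 1 of the 3, Nrep, had an unadjusted p under 0.05. Of all genes, 0.00744%, Nampt alone, were called, and 811 of the 13444 had an unadjusted p under 0.05. The WT Fasting livers of this comparison were among those that chose the genes. For Rgs16 the log2 difference was 0.03 (standard error 0.42, adjusted p = 0.992, 95% interval -0.89 to 0.95). For Nrep it was 0.63 (standard error 0.23, unadjusted p = 0.0209, adjusted p = 0.798, interval 0.11 to 1.14), and for Serpina4-ps1 it was 1.07 (standard error 0.69, adjusted p = 0.839, interval -0.44 to 2.58). The intervals still hold a change of Serpina4-ps1 by 0.74- to 5.99-fold and of Rgs16 by 0.54- to 1.94-fold. All 3 genes overlapped between these groups, as did all but 3.99% of genes. One liver weighed on each value: without WT Fasting mouse 1 the log2 difference was 0.99 for Nrep (adjusted p = 0.285) and 2.05 for Serpina4-ps1 (adjusted p = 0.570), and without WT Fasting mouse 3 it was 0.62 for Rgs16 (adjusted p = 0.990). Without NAMPT LKO mouse 5, the liver with more mitochondrial counts, the differences were -0.07 for Rgs16, 0.54 for Nrep and 1.32 for Serpina4-ps1, again with 0 of them called.

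**Figure D2:**
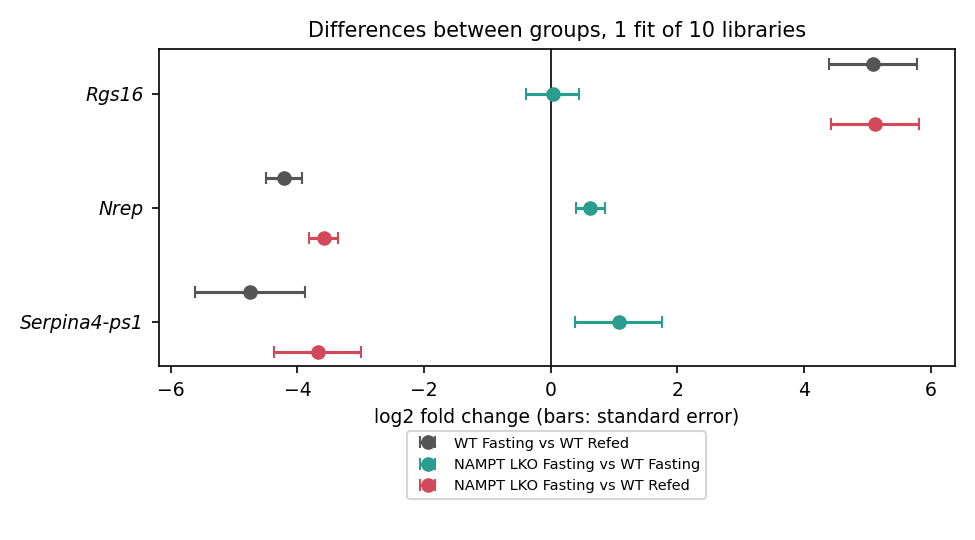
Log2 fold changes of the 3 genes with their standard errors for each pair of groups, from 1 fit of the 10 libraries. Both fasted groups lie far from the refed livers, at 5.09 and 5.12 for Rgs16, while the differences between the fasted genotypes are smaller, at 0.03 for Rgs16, 0.63 for Nrep and 1.07 for Serpina4-ps1.

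Across the 8 fasted livers, with both genotypes pooled, the 3 genes did not vary together in a way that passed a test. Over the 3 pairs, Pearson's r of log2(CPM + 1) was -0.60 for Rgs16 and Serpina4-ps1 (two-sided exact permutation p = 0.116, adjusted p = 0.349; Spearman's rho -0.62, exact p = 0.115, adjusted p = 0.345). For Nrep and Serpina4-ps1 it was 0.39 (exact permutation p = 0.330, adjusted p = 0.494; rho 0.29, exact p = 0.501, adjusted p = 0.536), and for Rgs16 and Nrep -0.07 (exact permutation p = 0.880, adjusted p = 0.880; rho -0.26, exact p = 0.536, adjusted p = 0.536). Leaving out the 2 livers farthest from the median of the first gene gave -0.28, -0.36 and 0.16, so both weaker relations changed sign, and the strongest shrank without WT Fasting mouse 1 and NAMPT LKO mouse 4. With each group's mean removed, r was -0.66 for Rgs16 and Serpina4-ps1 and 0.18 for Nrep and Serpina4-ps1. For Rgs16 and Nrep it was -0.13. These values with group means removed are descriptions.

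The pseudogene's variation within the fasted livers was matched most closely by Onecut1 and Serpina11. With each group's mean removed, r over the 8 fasted livers was 0.99 for each of them, and the third gene was Aagab, an adaptor-binding protein gene, at 0.96; these are the top 3 of 9170 genes and are given as a description, since the libraries share their depth and normalization. Onecut1 was at 9.37, 6.63 and 6.503 CPM in the WT Fasting livers and at 11.5, 8.85, 14.7, 13.9 and 7.63 CPM in the NAMPT LKO livers, so the same livers were high as for Serpina4-ps1. In the refed livers it was at 67.2 and 142 CPM, and its fall in WT Fasting livers was -3.80 on the log2 scale (adjusted p = 0.000307).

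Serpina11 varied with the pseudogene in fasted livers. It overlaps Gm28577 on the same strand, and reads in the overlap were not counted for either gene, so its level is uncertain. Serpina11 was at 53.9 and 39.1 CPM in the refed livers, 57.4, 20.2 and 20.7 CPM in the WT Fasting livers, and 42.6, 19.8, 86.5, 68.0 and 13.4 CPM in the NAMPT LKO livers. Its log2 difference between WT Fasting and WT Refed was -0.50 (adjusted p = 0.722). On the RPKM scale the ratio of Serpina4-ps1 to Serpina11 stayed between 0.184 and 0.417 over the 8 fasted livers, a 2.27-fold range, although Serpina4-ps1 itself ranged 9.15-fold and Serpina11 7.82-fold there. In the refed livers the ratio was 3.53 and 6.51.

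**Figure D3:**
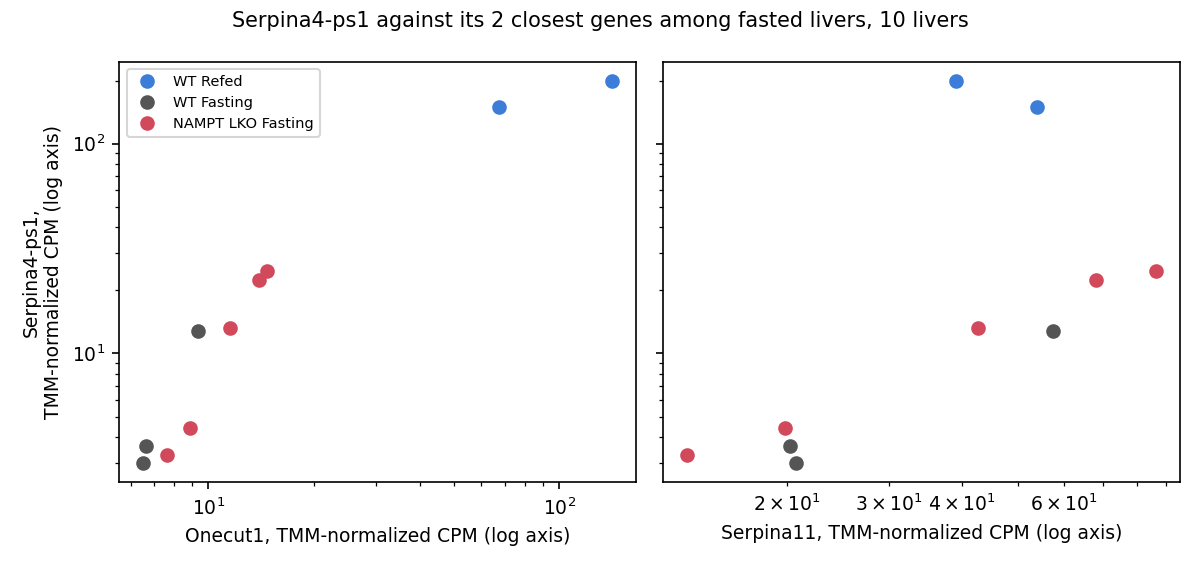
Serpina4-ps1 against Onecut1 (left) and Serpina11 (right) in the 10 livers, TMM-normalized CPM on log axes, coloured by group. Among the 8 fasted livers both pairs rise together; the 2 refed livers are above all fasted livers for both genes on the left, and on the right for Serpina4-ps1 but not for Serpina11.

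Of 24 Serpina genes besides Serpina4-ps1, 21 could be tested and 1 was called lower in WT Fasting against WT Refed, Serpina9, a serpin best known from germinal centre B cells, 79.4 kb away; 4.36% of all genes were called lower. The log2 difference was below 0 for 13 of the 21. DESeq2 called 2, Serpina9 and Serpina3m, beside 1646 of all 13444 genes. By edgeR's quasi-likelihood test 6 of the 21 had an unadjusted p under 0.05, beside 3002 of all 13444 genes. Serpina9 had 120 and 134 reads in the refed livers, 0 in each WT Fasting liver, and 0, 0, 3, 0 and 1 in the NAMPT LKO livers. Serpina9 passed the filter of more than 1 CPM only through the refed livers (2.78 and 3.18 deposited CPM), so its call was partly set by the filter. Against a floor of 3 reads a library it was at least 37.7-fold lower in WT Fasting livers. The list's median log2 fold change was -0.32 beside 0.04 over all genes.

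Apart from Serpina9, which is also among the nearest genes, those near the pseudogene gave smaller values or none. Serpina5 and Gm23289, the next genes after the pseudogene, were too low to test. By midpoints, Serpina3a lay at 33.6 kb, after it (log2 difference -0.81, adjusted p = 0.132) and Serpina12 (vaspin) at -47.1 kb, before it (-1.17, adjusted p = 0.320). Serpina3m (-0.54, adjusted p = 0.0501) and Serpina6, the corticosteroid-binding globulin (-0.67, adjusted p = 0.146), lie farther away and did not pass. Several Serpina1 and Serpina3 genes are near-identical copies of each other, so their own counts are uncertain. Within the fasted livers, r with Serpina4-ps1 was taken with each group's mean removed. It was at least 0.8 for 3 of the 15 Serpina genes that averaged 5 CPM or more (Serpina11, Serpina3c and Serpina6). It was at most -0.8 for 2, Serpina1d and Serpina1e, beside 2.09% and 1.71% of the 9170 genes at that level.

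**Figure D4:**
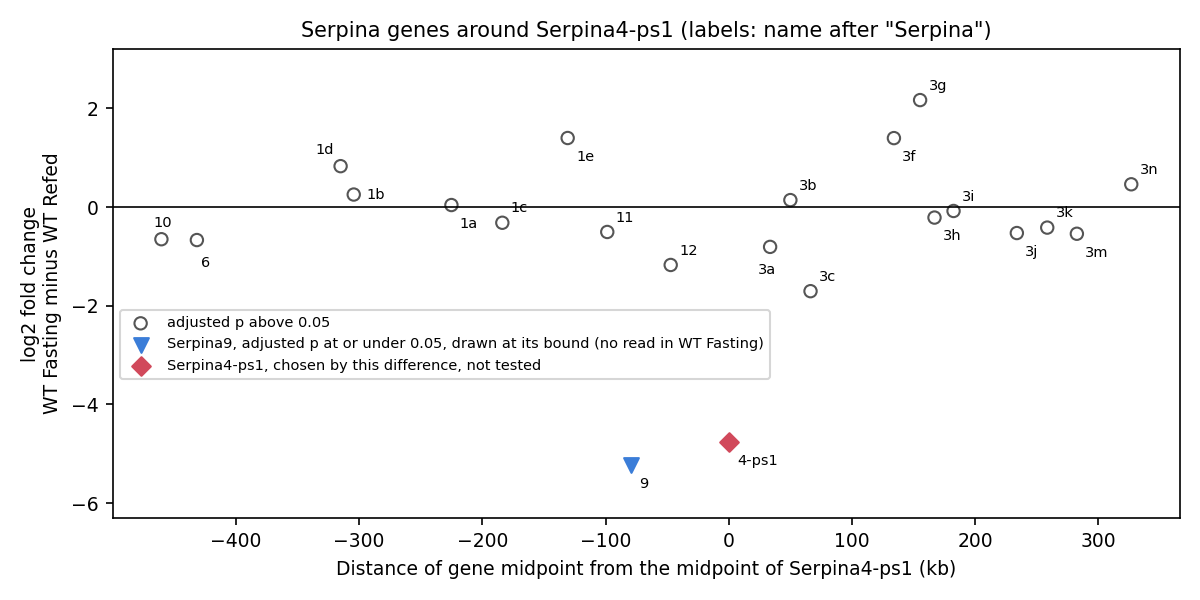
Log2 fold change in WT Fasting against WT Refed (y axis) by distance of each Serpina gene from Serpina4-ps1 in kb (x axis). Serpina4-ps1 (-4.75) and Serpina9 (drawn at its bound of -5.24) stand far below the other 20 tested genes, which lie between -1.70 and 2.17.

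The neighbours of the other genes gave few values. Next to Rgs16, Rgs8, C230024C17Rik and Gm28512 were too low to test. Nrep lies in a wide interval. Stard4, a cholesterol transport gene 223 kb away, fell by 1.495 on the log2 scale (adjusted p = 0.0138) in WT Fasting livers and Epb41l4aos, a long noncoding RNA 331 kb away on the other side, rose by 0.94 (adjusted p = 0.0133), while Camk4 and Gm23639 were too low to test.

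Partners of Rgs16 in G protein signalling were read beside it. Of 20 other RGS genes 8 could be tested and 1 was called higher in WT Fasting against WT Refed, beside 2.68% of all genes. It was Rgs1, an RGS gene known from immune cells, from 0.25 and 0.23 CPM to between 1.49 and 2.29 CPM (log2 fold change 2.93, standard error 0.57, adjusted p = 0.0127). Rgs1 had 11 and 10 reads in the refed livers and passed the filter of more than 1 CPM only through fasted livers, so its call was partly set by the filter. Rgs3 (-0.65, adjusted p = 0.188), Rgs10 (0.60, adjusted p = 0.246) and Rgs12 (0.79, adjusted p = 0.358) did not pass. Of 10 tested G protein alpha subunit genes 0 were called by edgeR's quasi-likelihood test or DESeq2, with 3 at an unadjusted p under 0.05. For scale, 3002 of all 13444 genes had an unadjusted p under 0.05 in that edgeR test. Among the 3, Gna12 had a log2 difference of 0.59 and Gna11 of -0.38. Of 12 tested receptors of fasting and feeding signals, 0 were called by the same test and 3 passed at an unadjusted p under 0.05. DESeq2 called 3 of the 12, beside 1646 of all 13444 genes. The 3 included Insr, the insulin receptor gene (0.43, adjusted p = 0.0661 in edgeR), and Adra1a, an adrenergic receptor gene (1.19, adjusted p = 0.0736 in edgeR).

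Rgs16 is known as a clock-regulated and carbohydrate-responsive gene, so those lists were read beside it. Over all genes tested, 2.68% were called higher and 4.36% lower in WT Fasting against WT Refed. Of 19 clock genes, 1 was called higher and 3 were called lower in WT Fasting livers. Per1 rose by 0.72 on the log2 scale (adjusted p = 0.0399), and Bhlhe41 (-2.66, adjusted p = 0.0105), Per2 (-1.70, adjusted p = 0.0232) and the PAR bZIP factor gene Dbp (-1.93, adjusted p = 0.0349) fell. Of 9 genes of ChREBP, the carbohydrate response element binding protein, and its response, 2 were called higher. They were Arrdc4 (0.77, adjusted p = 0.0279) and Txnip (1.34, adjusted p = 0.0302), both arrestin-family genes, and Mlx (-0.41, adjusted p = 0.170) did not pass. Of 10 periportal genes 1 was called higher, Pck1 of gluconeogenesis (1.41, adjusted p = 0.00138), which is also a member of the fasting list below. Of 9 pericentral genes 0 were called by edgeR's quasi-likelihood test or DESeq2. In the edgeR test 1 had an unadjusted p under 0.05, beside 3002 of all 13444 genes.

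The reference lists gave the size of the common response. All 10 fasting genes had a log2 difference above 0, and edgeR's quasi-likelihood test called 6 of them higher, beside 2.68% of all genes. Among the 6 was Angptl4, a lipoprotein lipase inhibitor (2.38, adjusted p = 0.000253). All 10 had an unadjusted p under 0.05 in that test. DESeq2 called 9 of the 10, beside 1646 of all 13444 genes. The list's median was 1.89 on the log2 scale beside 0.04 over all genes. Rgs16 at 5.09 lay above every member of that list except Igfbp1, but it was chosen by this same difference. Of 9 tested feeding genes 8 had a log2 difference below 0, and 1 was called lower by edgeR's quasi-likelihood test, beside 4.36% of all genes. DESeq2 called 3 of the 9, beside the same 1646 of all 13444 genes. In the edgeR test 5 had an unadjusted p under 0.05, beside 3002 of all 13444 genes. Thrsp, a gene of lipid synthesis (-1.19, adjusted p = 0.0624), did not pass in edgeR but was called by DESeq2. Nrep and Serpina4-ps1, also chosen by this difference, lay below all 9.

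For Nrep, of 21 tested genes of TGF-beta signalling and stellate cells 0 were called in WT Fasting against WT Refed by edgeR's quasi-likelihood test or DESeq2. In the edgeR test 3 had an unadjusted p under 0.05, beside 3002 of all 13444 genes. Smad4 (0.35, adjusted p = 0.0990), Tgfbr3 (0.37, adjusted p = 0.140) and Vim (0.95, adjusted p = 0.205) had the lowest p. The list's median was 0.20 on the log2 scale.

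**Figure D5:**
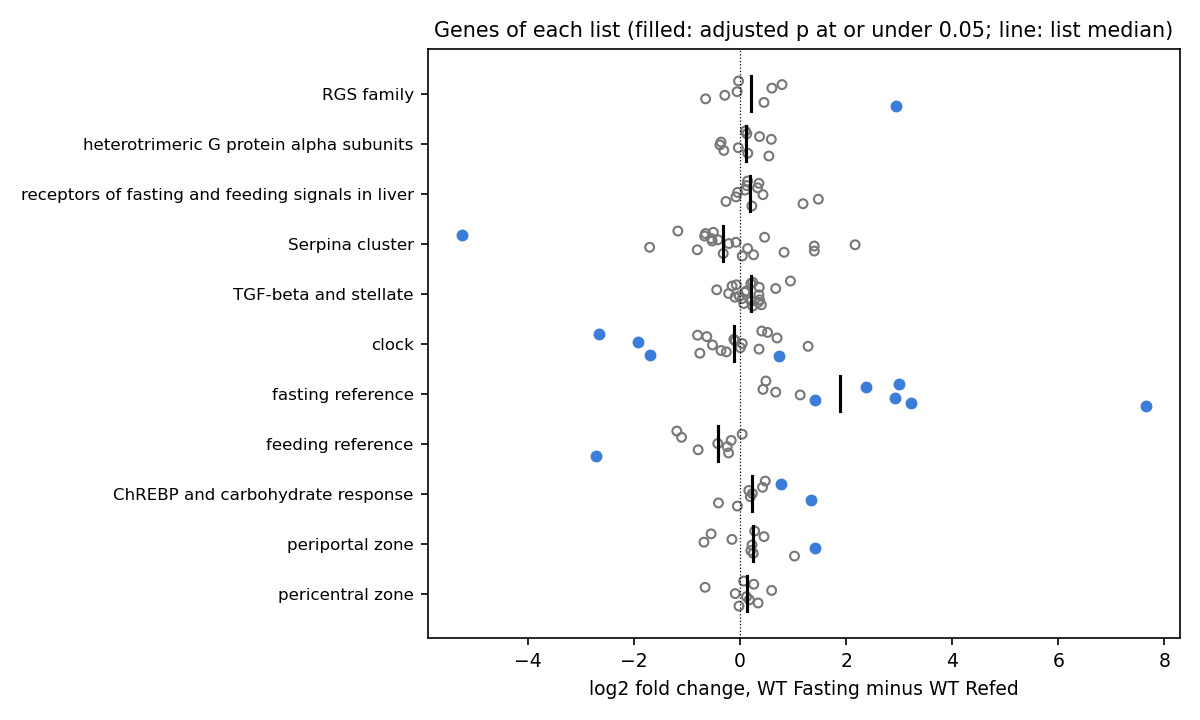
Log2 fold change in WT Fasting against WT Refed (x axis) of every tested gene of 11 lists; filled points have an adjusted p at or under 0.05 and lines are list medians. The fasting list is shifted to a median of 1.89, while the other 10 lists have medians between -0.42 and 0.24; Serpina9 is drawn at its bound.

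In the comparison of fasted genotypes, 0 of the 137 tested genes of these 11 lists were called by edgeR's quasi-likelihood test. DESeq2 called 1, Col1a1, a collagen gene, beside 21 of all 13444 genes. In the edgeR test 11 of the 137 had an unadjusted p under 0.05, beside 811 of all 13444 genes. Col1a1 had a log2 difference of 1.79 and Ltbp1, a latent TGF-beta binding protein gene, of 0.73 (adjusted p = 0.761 for both). Serpina3g (-2.37, adjusted p = 0.761) and Sstr2, a somatostatin receptor (1.09, adjusted p = 0.827), had the lowest p of their lists. Of 5 cholangiocyte markers 4 had an unadjusted p under 0.05, 0 were called by edgeR's quasi-likelihood test and 3 by DESeq2; the summed markers were at 34.6 to 51.0 deposited CPM in NAMPT LKO livers and 15.2 to 21.2 in WT Fasting livers. Their part in the values of the 3 genes was not tested.

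Over all 10 livers, the 4 genes most like each of the 3 by Pearson's r, and the 2 most opposite, were ranked among 9170 genes. For Rgs16 the closest were Slc7a2, a cationic amino acid transporter (r = 0.97), Lpin2, a phosphatidate phosphatase of lipid synthesis (0.97), Cep250 (0.96) and Atxn10 (0.95). Slc7a2 rose from 176 and 208 CPM in refed livers to between 578 and 758 CPM in WT Fasting livers, and was lowest among the fasted livers in NAMPT LKO mouse 4 (479 CPM), as Rgs16 was. Lpin2 was also lowest there (209 CPM against 299 to 452 CPM in the other fasted livers). The most opposite genes were Hsd17b2, a steroid dehydrogenase (r = -0.99), and Ccdc86 (r = -0.98).

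For Nrep the closest were Tram1 (r = 0.98), a component of the protein translocation channel, Adgrl2 (0.98), Alg2, an enzyme of N-glycosylation (0.98), and Ptcd2 (0.97), and the most opposite were Pcbp2 (-0.97) and Hmox2 (-0.97). Their changes were much smaller than that of Nrep: Tram1 differed by -0.74 and Alg2 by -1.23 on the log2 scale in WT Fasting against WT Refed. For Serpina4-ps1 they were Fzd7, a Wnt receptor (0.97), Dhdds, an enzyme of dolichol synthesis (0.97), Kti12 (0.96) and Coa3 (0.96), with Gadd45b, a stress-response gene that rose by 2.05, the most opposite (-0.97), and Tut4 (-0.96). These r values come from 10 livers in 2 feeding states and are descriptions. Within the fasted livers alone, with each group's mean removed, the genes closest to Rgs16 were Hspa1b, a heat shock protein gene, Sf3a1 and Fbxo34 (0.96, 0.96 and 0.95). Those closest to Nrep were Srgap3, Rragc and Ciao1 (0.97 each).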

How the data were processed

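Libraries were made from polyadenylated liver RNA and read as single 50-base reads. The submitters' processing notes name STAR 2.5.1a, Subread featureCounts 1.4.6-p5 and GRCm38. The deposited count of each Ensembl gene is the number of uniquely aligned, unambiguous reads, as the authors describe it; strand use is not given in the sources used here. The authors' CPM values divide these counts by the library total, and the authors' RPKM values also divide by exonic length. Symbols came from GENCODE vM21 for 40254 of 41388 genes, and promoters from RefSeq (GRCm38.p6).

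The filter required more than 1 CPM in any library and dropped rRNA genes, leaving 13444 genes. Counts were TMM-normalized and fitted with edgeR 4.0.16 (quasi-likelihood, R 4.3.3) over all 10 libraries, with Benjamini-Hochberg adjustment. DESeq2 1.42.0, limma 3.58.1 (voomWithQualityWeights), edgeR's exact test, other scalings and filters, fits of 2 groups, blocking by number and leaving out each library were alternatives. The code was tested on simulated data. With 1 library a mouse, p-values measure the spread between mice. No libraries of a group were identical or agreed within sampling noise. WT Refed replicates were numbered in accession order.

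The 3 genes and all lists were chosen with earlier results of these data known. Genes were named by rule: the 3 genes, Nampt, for each of the 3 the 4 most alike and 2 most opposite by Pearson's r of log2(TMM CPM + 1) and the 3 most alike over the 8 fasted libraries with group means removed (mean of 5 CPM or more), from each list at most 4 genes of lowest p in WT Fasting vs WT Refed and 2 in NAMPT LKO Fasting vs WT Fasting, the 2 nearest genes on each side, and the genes beside them in the ranking. Gm28513, Gm28577, Lrat, Pdgfrb, Serpina1d and Serpina1e were named after their values were seen. Some genes that this rule selects are not reported here.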

Additional observations from a re-analysis of the deposited data

Results flagged for a closer look

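Among the 5 NAMPT LKO Fasting livers, Rgs16 in mouse 4 (11.6 CPM) lay apart from the other 4 livers (32.4 to 43.7 CPM): its gap to the nearest liver was 0.775 of the group's whole range on the log2 scale, above Dixon's 95% limit of 0.71 for 5 values. On the CPM scale the gap was 0.648, under the limit. Of 8 such values tested (Rgs16, Nrep, Serpina4-ps1 and the total count, each on 2 scales) this was the only one above the limit, and chance flags about 1 group in 20.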

How the results depend on the processing

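In NAMPT LKO Fasting against WT Fasting livers, Rgs16, Nrep and Serpina4-ps1 stayed above an adjusted p of 0.05 in each of the 20 alternatives, and Nrep and Serpina4-ps1 kept their direction. The log2 difference of Rgs16 was -0.016 with library size alone, ran from -0.22 to 0.62 with 1 library left out, and changed sign in 6 of 20 alternatives. Against WT Refed livers the 3 genes kept their direction throughout, and in WT Fasting, with 1 library left out, Nrep ran from -4.59 to -4.05, Serpina4-ps1 from -5.74 to -4.41 (the lowest of both without WT Fasting mouse 1) and Rgs16 from 4.49 (without WT Fasting mouse 3) to 5.52. The counts moved more. WT Fasting against WT Refed gave 946 genes, but 1646 with DESeq2, 3331 with voomWithQualityWeights, 1617 with only these groups, and 107 (without WT Refed mouse 2) to 2235 (without NAMPT LKO mouse 5) with 1 library left out. NAMPT LKO Fasting against WT Refed gave 1510, but 4281 with voomWithQualityWeights and 226 to 2835 without those same libraries. NAMPT LKO Fasting against WT Fasting gave 1, but 2 with library size alone, 3 with filterByExpr, 17 without a filter, 21 with DESeq2, 24 with the exact test, and 1 to 2 with 1 library left out. With library size alone, 25.7% in place of 38.1% of calls in WT Fasting and 26.1% in place of 41.4% in NAMPT LKO Fasting, both against WT Refed, were higher.

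The replicate block on libraries 1 to 3 called 0 genes (edgeR; 879 at an unadjusted p under 0.05), and those libraries fitted with no block also 0 (832). Livers sharing a number, which are different mice, correlated in their deviations by 0.112, 0.066 and 0.140, and not every liver correlated best with its own number.

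Called Serpina genes in WT Fasting against WT Refed went from 1 to 2 with library size alone and 2 with DESeq2, and in NAMPT LKO Fasting against WT Refed from 2 to 4 with DESeq2. TGF-beta and stellate genes called went from 2 to 1 with library size alone and 7 with DESeq2 in NAMPT LKO Fasting against WT Refed, and from 0 to 1 with DESeq2 against WT Fasting. Over all 13444 genes, DESeq2 called 1646 in WT Fasting and 2242 in NAMPT LKO Fasting, both against WT Refed. Between the fasted genotypes it called 21. Without the 2 livers farthest from the median, r turned to 0.16 for Rgs16 and Nrep and to -0.36 for Nrep and Serpina4-ps1. Of the 4 genes most like each, 0 to 4 (Rgs16), 0 to 3 (Nrep) and 1 to 3 (Serpina4-ps1) were kept over 13 alternatives. The cause of these shifts was not tested. With 2 refed livers and few Rgs16 reads there, its fold change is the least precise in counting.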
